A study of Mus musculus with 9 samples.

Results

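Interleukin genes, taken as every gene whose array symbol starts with Il and a digit apart from Il5ra and Il3ra, were followed in murine MLL-AF9 leukaemia cells in which Polycomb repressive complex 2 (PRC2) was suppressed. The rule gave 74 of the 19937 genes tested: 37 ligands, 31 receptor chains, 5 antagonists, binding proteins or decoy receptors, and 1 antisense transcript, Il1bos. Il1f5, which encodes the interleukin-36 receptor antagonist, was counted with the ligands throughout. Where a gene had several probe sets, that with the highest mean over the arrays stood for it. The receptor genes Il1r1, Il1rl1 and Il2rg were not analysed here. Total RNA came from an acute myeloid leukaemia line carrying MLL-AF9 and NrasG12D on the B6/SJL(CD45.2) background, harvested on day 5 after transduction with an MSCV-based LMN retroviral vector. The control group received an shRNA against Renilla luciferase (Rluc), a gene these cells lack, and the other 2 groups received an shRNA against Eed or against Suz12, both core subunits of PRC2. Each group held 3 arrays, 9 in all, and all groups share the leukaemia line, its 2 oncogenes, the vector and the time point. Whether the 3 arrays of each group are separate cultures or transductions is not stated in the labels, so the p-values reflect only how far these particular arrays vary, and that variation may be technical. The question put by the design was which genes lie downstream of PRC2 in these cells.

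Interleukins are secreted or released messengers between blood cells. Most act through a receptor built of a ligand-binding chain and a signalling partner that several interleukins may share. The IL-1 family signals through MyD88 and IRAK kinases and is held in check by a soluble antagonist, Il1rn, and by decoy receptors, whereas most other interleukin receptors signal through JAK kinases and STAT factors. In myeloid cells they govern inflammation and the growth and maturation of granulocytes and macrophages. PRC2 silences genes by methylating a lysine of histone H3, most often at promoters rich in CpG dinucleotides.

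The antagonist Il1rn and the ligand Il1f9 rose most of the 74 genes, and both lie within a single run of IL-1 family genes on chromosome 2, while the next largest rise in either comparison was that of the receptor gene Il7r on chromosome 15, under Eed shRNA (1.02, log2). Under Suz12 shRNA the receptor gene Il13ra1 rose slightly more than Il7r (0.86 against 0.84). Their promoters are therefore shown, each as the 250 bases before an annotated start, 5′ to 3′ on the strand of the gene, from the RefSeq annotation of GRCm38.p6. Capitals mark CG dinucleotides. The windows are chr2:24336610-24336859 and chr2:24345041-24345290 for the outer and an inner start of Il1rn (plus strand), chr2:24186226-24186475 for Il1f9 (plus strand) and chr15:9529877-9530126 for Il7r (minus strand). A further Il1rn start, whose window overlaps that of the inner start shown, is not printed.
Il1rn outer: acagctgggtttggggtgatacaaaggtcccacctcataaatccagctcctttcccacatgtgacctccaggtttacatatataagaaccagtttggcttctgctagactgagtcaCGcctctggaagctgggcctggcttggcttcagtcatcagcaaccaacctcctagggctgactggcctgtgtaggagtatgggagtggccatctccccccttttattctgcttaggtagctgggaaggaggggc
Il1rn inner: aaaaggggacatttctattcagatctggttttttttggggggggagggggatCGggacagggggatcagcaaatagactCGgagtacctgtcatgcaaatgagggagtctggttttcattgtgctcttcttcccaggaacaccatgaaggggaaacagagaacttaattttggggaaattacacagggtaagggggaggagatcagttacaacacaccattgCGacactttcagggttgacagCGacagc
Il1f9: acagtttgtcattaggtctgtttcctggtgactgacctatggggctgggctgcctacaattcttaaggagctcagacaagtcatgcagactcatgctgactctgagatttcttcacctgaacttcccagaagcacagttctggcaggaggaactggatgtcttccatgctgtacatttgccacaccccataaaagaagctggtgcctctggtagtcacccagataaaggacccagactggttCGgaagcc
Il7r: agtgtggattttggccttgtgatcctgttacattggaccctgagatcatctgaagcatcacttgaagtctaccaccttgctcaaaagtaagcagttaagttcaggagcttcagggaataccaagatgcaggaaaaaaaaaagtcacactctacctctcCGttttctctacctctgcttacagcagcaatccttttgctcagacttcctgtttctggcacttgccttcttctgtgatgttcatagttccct

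These promoters hold few CG dinucleotides. The outer Il1rn window, the Il1f9 window and the Il7r window each hold 1, and the inner Il1rn window holds 4. Over all 32851 promoter windows of this length the median was 6, and 37.8% of them held 10 or more. Of the members, 57 had a window in the table. Taking the window richest in CG for each gene, the 9 members with a window that rose in 1 comparison or both held 1 to 21, with a median of 4. The 3 members with a window that fell, Il12a, Il6ra and Il6st, held 15, 18 and 26. The window of another Il12a start held 2. The 45 members called in neither comparison held 0 to 30, again with a median of 4, against a median of 6 over the 27025 genes with a window. Among the members that rose, Il13ra1 with 21 and Il12rb2 with 10 were the 2 of 9 that held 10 or more. Of the 45 called in neither comparison 9 did so, and of the 27025 genes 10871. The letters GAGGAA, a core of PU.1 sites searched on both strands, occurred among the members that rose once in the Il1f9 window and 2 times in that of Il18rap, and in 23.3% of all windows. The letters TTGCNNAA, a C/EBP-like motif searched likewise, occurred once each in windows of Il7r, Il1rl2 and Il33, and in 9.56% of all windows.

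Each shRNA lowered its own target, Eed by 3.36-fold (log2 change -1.75, limma adjusted p = 3.1e-07) and Suz12 by 3.94-fold (-1.98, adjusted p = 5.44e-08). The deposited values are log2 levels from RMA with array medians between 6.86 and 6.95, and the number of arrays limits the precision. As a guide to background, 1027 olfactory receptor genes, which serve mainly in the sensory cells of the nose, had control means from 3.87 to 8.48, with a median of 4.92 and a 95th percentile of 6.32. The guide is no detection call, since each probe set has its own affinity. Of the 74 interleukin genes, 39 exceeded 6.32 on average in 1 group or more and 36 did so in the controls. The 35 others, 22 of them ligands and 10 receptors, had means over the 9 arrays between 4.30 and 6.28. These included the classical T cell products Il2, Il4, Il5, Il10 and Il17a, the granulocyte growth factor Il3, and Il6. Other T cell products, Il13, Il17f and Il31, lay a little above the guide in all 3 groups (6.61, 6.68 and 6.54 over the 9 arrays). Of the T and NK cell markers 5 of 11, and of the B cell markers 2 of 9, lay above the guide in any group. Over all genes, 13533 of 19937 did so. In the controls 9 of 11 neutrophil and 8 of 10 monocyte and macrophage markers lay above it, against 13305 of 19937 genes.

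**Figure D1:**
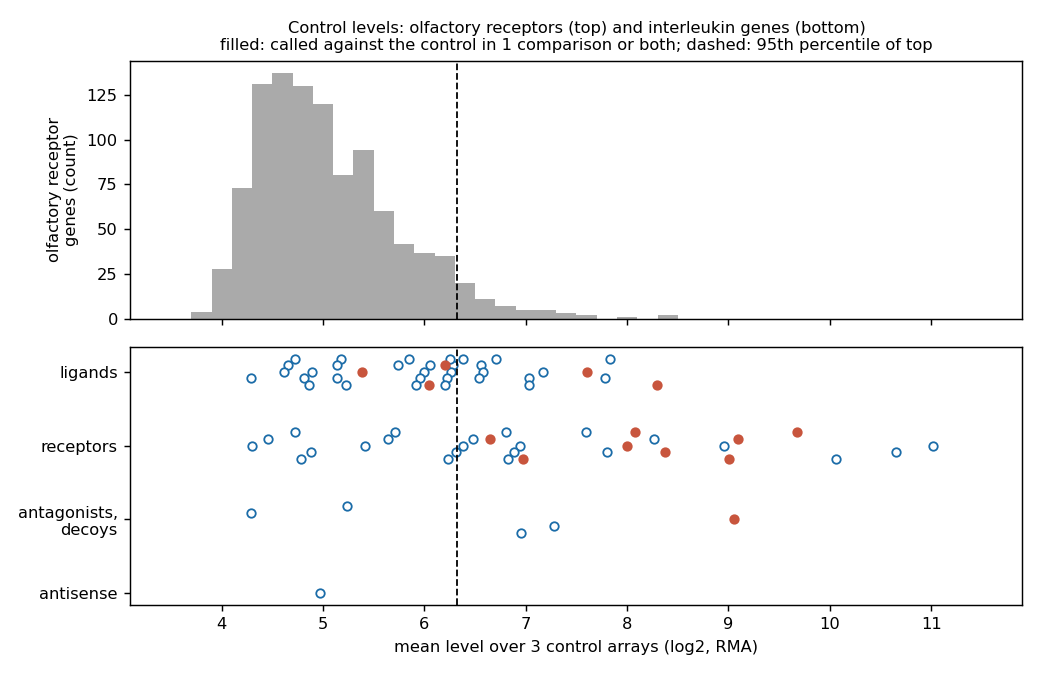
Mean level over the 3 control arrays (log2, RMA). The upper panel counts 1027 olfactory receptor genes by level, the lower panel places each of the 74 interleukin genes by role, and the dashed line is the guide at 6.32. Filled points are genes called in 1 comparison with the control or both, of which Il33, Il1b and Il1f9 lie left of the line in the controls.

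In both comparisons a handful of interleukin genes were called and most were not. Under Eed shRNA 9 of the 74 genes were higher and 3 lower at an adjusted p under 0.05, and 62 were not called. This was 16.2% of the members against 21.8% of all genes. The 9 higher members were 12.2% of the 74, against 8.78% of all genes, and the 3 lower members were 4.05%, against 13.1%. Under Suz12 shRNA 10 were higher, 3 lower and 61 not called. That was 17.6% against 21.2% of all genes, with 13.5% higher against 8.25% and 4.05% lower against 12.9%. A change of at least 1.5-fold in a called gene was seen for 6 higher and 1 lower member under Eed shRNA (1.99% and 0.396% of all genes) and for 7 and 1 under Suz12 shRNA (2.03% and 0.396%). The median change over the members was 0.02 and -0.0052 (log2, Eed then Suz12 shRNA), and over all genes -0.0068 and -0.0171. Among the 39 members above the guide in 1 group or more, 12 were called under each shRNA (30.8%), against 31.4% and 30.3% of all genes above it. Il1f9 and Il1b, called in both comparisons, passed that filter only in the knockdown groups, so the filter and the calls are not independent. How many calls went up or down depended in part on the scaling. After each array was centred on its median, 9 members were higher and 6 lower under Eed shRNA (60% higher against 75%). Under Suz12 shRNA 9 were higher and 10 lower (47.4% against 76.9%), and quantile normalization gave 10 and 5 there (66.7%). Over all 19937 genes the balance moved as well. Centring gave 1299 higher and 3983 lower under Eed shRNA and 1276 and 4176 under Suz12 shRNA. The reported fit gave 1750 and 2602, and 1644 and 2578. With cyclic loess the balance turned, to 2252 higher and 1983 lower and to 2208 and 1800. The members stayed at 9 and 3, and 10 and 3, with cyclic loess. Without overlap between arrays, 11 members stood higher and 5 lower than the controls under Eed shRNA (12.9% and 19.4% of all genes), and 15 and 6 under Suz12 shRNA (11.9% and 19.9%). The 2 comparisons share the control arrays, so their values are given side by side. Among the olfactory receptors, 1 of 1027 was called under Eed shRNA and 6 under Suz12 shRNA.

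**Figure D2:**
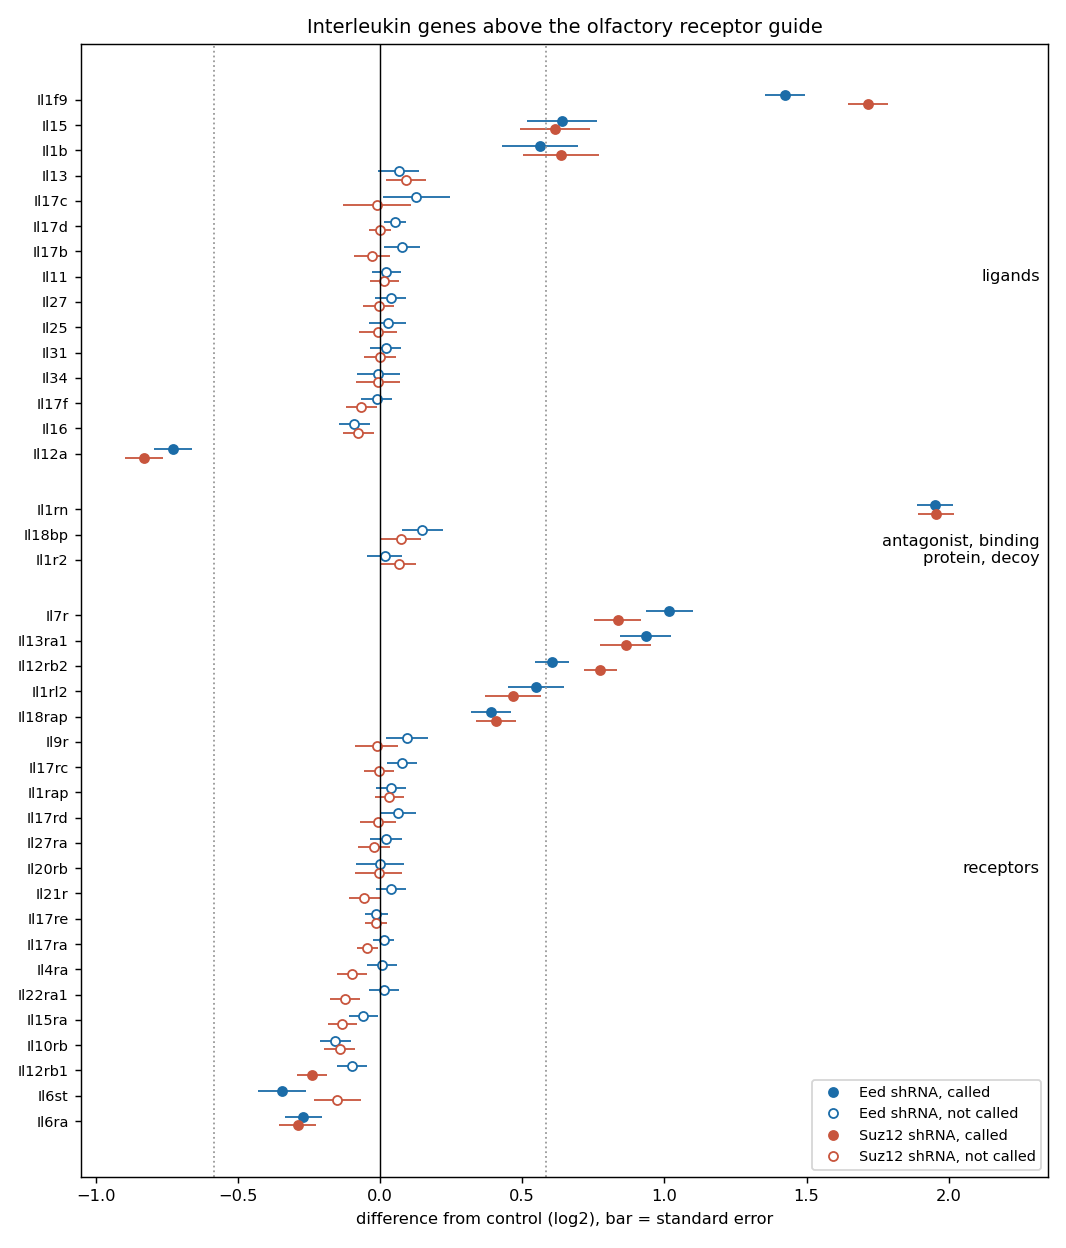
Difference from the control (log2) of the 39 interleukin genes above the guide, by role, for Eed shRNA and Suz12 shRNA; bars are standard errors, filled points are called, and dotted lines mark 1.5-fold. Most points lie near 0, with Il1f9, Il1rn, Il7r and Il13ra1 farthest to the right and Il12a farthest to the left.

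Among the 37 ligands, 4 were called under Eed shRNA (3 higher, 1 lower) and 5 under Suz12 shRNA (4 higher, 1 lower). That was 10.8% and 13.5% of the ligands, against 21.8% and 21.2% of all genes. However, 22 of the 37 ligands lay below the guide in every group. Among the 15 above it in 1 group or more, 4 were called under each shRNA (26.7%). Of all genes above it, 31.4% and 30.3% were called. Il1f9 and Il1b passed that filter only in the knockdown groups, so this share is not independent of the calls. Il1f9, which encodes interleukin-36 gamma, an alarm cytokine of the IL-1 family, had the largest change of a ligand. Its probe set 10469786 read 6.10, 6.23 and 6.27 (log2) on the control arrays. It read 7.58, 7.64 and 7.66 under Eed shRNA and 8.04, 7.95 and 7.76 under Suz12 shRNA. All control arrays lay below the guide and all knockdown arrays well above it, with no overlap. Under Eed shRNA the rise was 2.68-fold (log2 change 1.42, SE 0.07, limma adjusted p = 7.12e-07), and under Suz12 shRNA it was 3.28-fold (1.72, SE 0.07, adjusted p = 2.07e-07).

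Il1b encodes interleukin-1 beta, the inflammasome-processed cytokine of activated myeloid cells. Its values were 6.14, 5.95 and 6.06 in the controls, 6.75, 6.53 and 6.56 under Eed shRNA and 6.51, 7.06 and 6.48 under Suz12 shRNA. The controls lay below every knockdown array and below the guide, and Suz12 shRNA replicate 2 stood above the other 2 arrays of its group. Its level was 1.48-fold higher with Eed shRNA (0.56, SE 0.13, adjusted p = 0.0124), and 1.56-fold higher with Suz12 shRNA (0.64, SE 0.13, adjusted p = 0.00666). Without Eed shRNA replicate 1 the change under Eed shRNA was 0.49 and no longer called (adjusted p = 0.0558). Il1a, the related cytokine encoded next to it, was not called (0.28, adjusted p = 0.507, and 0.43, adjusted p = 0.264). It read 5.27, 5.15 and 4.9964 in the controls, 5.94, 5.10 and 5.22 under Eed shRNA and 5.27, 6.05 and 5.38 under Suz12 shRNA. Its highest array in each knockdown group, Eed shRNA replicate 1 and Suz12 shRNA replicate 2, was also the highest for Il1b. The antisense transcript Il1bos, which lies beside Il1b, changed by 0.17 and 0.16 and was not called (adjusted p = 0.065 and 0.0888), although it was without control replicate 3 (0.23 and 0.22).

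Il15, a growth factor for NK cells and memory T cells that myeloid cells present on their surface, rose by similar amounts. It read 7.80, 7.25 and 7.77 in the controls, 8.21, 8.25 and 8.29 under Eed shRNA and 8.25, 8.12 and 8.30 under Suz12 shRNA. Control replicate 2 lay lower than the other control arrays, and the groups did not overlap. The rise was 1.56-fold (0.64, SE 0.12, adjusted p = 0.00354) and 1.53-fold (0.61, SE 0.12, adjusted p = 0.00488).

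Il12a, which encodes the p35 chain of interleukin-12, was the ligand that fell. It read 8.27, 8.36 and 8.26 in the controls, 7.46, 7.51 and 7.73 under Eed shRNA and 7.40, 7.49 and 7.50 under Suz12 shRNA. Every knockdown array lay below every control array. Under Eed shRNA it fell 1.66-fold (-0.73, SE 0.07, adjusted p = 4.39e-05), and under Suz12 shRNA the fall was 1.78-fold (-0.83, SE 0.07, adjusted p = 1.79e-05). Il33, an alarm cytokine of barrier tissue, was called under Suz12 shRNA by a narrow margin. It changed by 0.14 (adjusted p = 0.049) there and by 0.13 under Eed shRNA (adjusted p = 0.0619), and lay below the guide on average in every group at 5.38, 5.52 and 5.52. That call was lost under 11 of 16 alternative settings, among them without any single control array, without Eed shRNA replicate 1 or 3 and without Suz12 shRNA replicate 1 or 2 (0.11 to 0.15), and it was made under Eed shRNA without replicate 2 of that group (0.16). The 32 other ligands were not called in either comparison and changed by -0.14 to 0.43. Among them were Il27 (0.04 and -0.0053), which encodes the p28 chain of interleukin-27, the lymphocyte attractant Il16 (-0.09 and -0.08) and the epithelial cytokine Il17c (0.13 and -0.01).

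Of the 5 antagonists, binding proteins and decoys, a count that leaves out Il1f5, Il1rn changed. It encodes the interleukin-1 receptor antagonist, which occupies the receptor without signalling. Its probe set 10469816 read 9.05, 9.18 and 8.94 in the controls, 11.03, 11.08 and 10.91 under Eed shRNA and 10.99, 11.05 and 11.00 under Suz12 shRNA. The control arrays and the knockdown arrays were far apart, and the knockdown groups overlapped each other. The rise was 3.86-fold (1.95, SE 0.06, adjusted p = 5.46e-08) and 3.87-fold (1.95, SE 0.06, adjusted p = 5.32e-08). The probe set does not tell which of the annotated starts was used. Il18bp, the soluble trap of interleukin-18, changed by 0.15 and 0.07, the decoy receptor gene Il1r2 by 0.02 and 0.07 and the soluble interleukin-22 receptor gene Il22ra2 by 0.02 and -0.11, and none was called. Il13ra2, a decoy for interleukin-13, lay below the guide at 4.29, 4.29 and 4.32 (control, Eed and Suz12 shRNA).

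**Figure D3:**
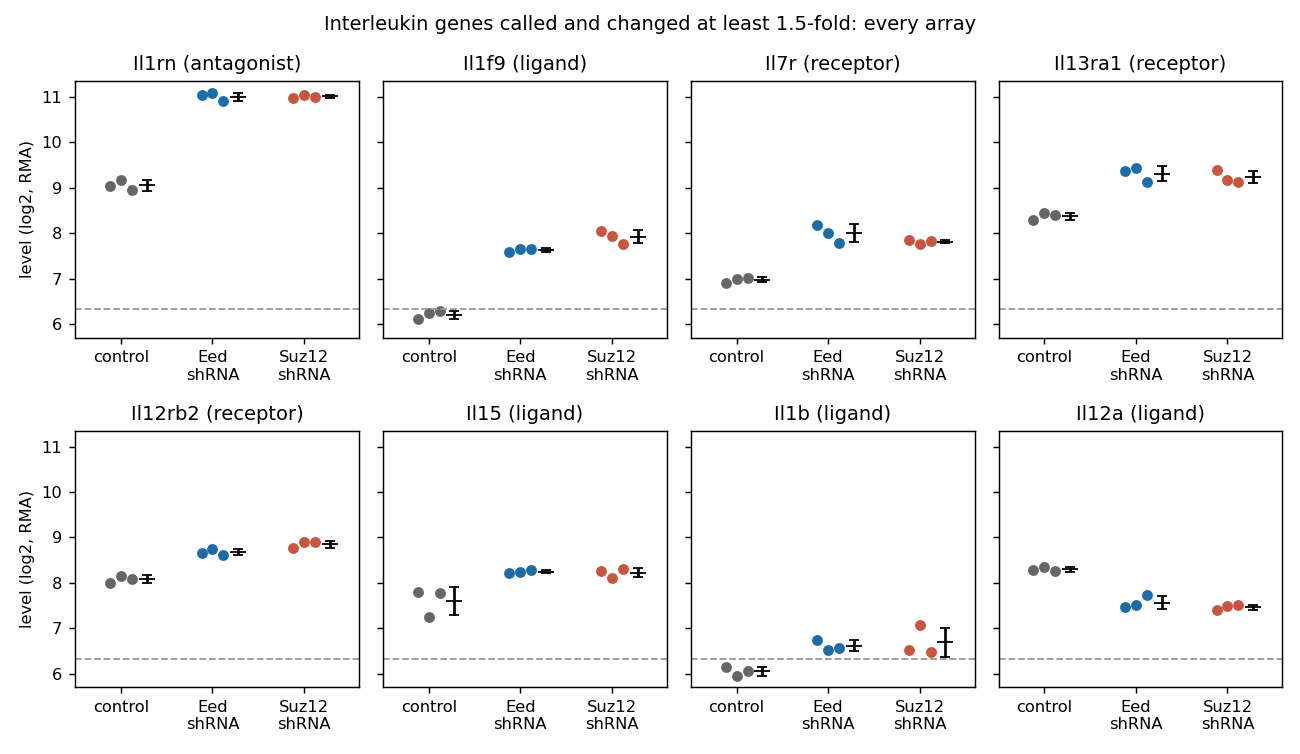
Level on every array (log2, RMA) of the 8 interleukin genes called and changed at least 1.5-fold in 1 comparison or both; coloured points are arrays, the black mark and bar are the mean and SD of 3 arrays, and the dashed line is the background guide. In each panel the control arrays lie apart from all 6 knockdown arrays, above them for Il12a and below them for the other genes.

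Of the 31 receptor chains, 5 were higher and 2 lower under each shRNA. That was 22.6% of the chains each time, near the 21.8% and 21.2% of all genes. Il7r, the interleukin-7 receptor alpha chain best known from lymphoid development, read 6.91, 7.00 and 7.02 in the controls, 8.19, 7.99 and 7.79 under Eed shRNA and 7.84, 7.77 and 7.82 under Suz12 shRNA. The controls were below all knockdown arrays. It rose 2.02-fold (1.02, SE 0.08, adjusted p = 1.88e-05) and 1.78-fold (0.84, SE 0.08, adjusted p = 6.98e-05). Il13ra1, the chain that pairs with the interleukin-4 receptor on myeloid cells, read 8.29, 8.43 and 8.40 in the controls, 9.36, 9.44 and 9.12 under Eed shRNA and 9.40, 9.18 and 9.14 under Suz12 shRNA. Again no array of a knockdown reached down to the controls. The rise was 1.91-fold (0.93, SE 0.09, adjusted p = 5.7e-05) and 1.82-fold (0.86, SE 0.09, adjusted p = 9.24e-05).

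Il12rb2, the signalling chain of the interleukin-12 receptor, read 7.99, 8.16 and 8.08 in the controls, 8.66, 8.75 and 8.62 under Eed shRNA and 8.76, 8.90 and 8.89 under Suz12 shRNA. The 3 groups did not overlap. It rose 1.52-fold (0.61, SE 0.06, adjusted p = 6.16e-05) and 1.71-fold (0.77, SE 0.06, adjusted p = 1.15e-05). Both remaining rises were of IL-1 family receptors. Il1rl2, the receptor chain for interleukin-36, went from 6.64 ± 0.10 in the controls to 7.19 ± 0.19 and 7.11 ± 0.14 (log2, SD, n = 3; 0.55 and 0.47, limma adjusted p = 0.00241 and 0.00645). Il18rap, the accessory chain of the interleukin-18 receptor, went from 9.09 ± 0.03 to 9.49 ± 0.15 and 9.50 ± 0.07 (SD, n = 3; 0.39 and 0.41, limma adjusted p = 0.00253 and 0.0022). For both genes all control arrays lay below all knockdown arrays.

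The falls among receptor chains were small. Il6ra, the binding chain for interleukin-6, went from 9.68 ± 0.11 in the controls to 9.41 ± 0.02 and 9.39 ± 0.11 (SD, n = 3), falling 1.21-fold and 1.22-fold (-0.27, limma adjusted p = 0.0124, and -0.29, adjusted p = 0.009). With control replicate 1 left out, the fall under Eed shRNA was no longer called (-0.23, adjusted p = 0.0508). Il6st, which encodes gp130, the signalling chain shared by the interleukin-6 group, fell under Eed shRNA (-0.34, adjusted p = 0.0134) and was not called under Suz12 shRNA (-0.15, adjusted p = 0.278). Its control arrays read 8.91, 8.86 and 9.24, and the call was lost without Eed shRNA replicate 2 (-0.32, adjusted p = 0.0563). Without control replicate 3, the highest of them, the fall under Eed shRNA was smaller and still called (-0.23), and the change under Suz12 shRNA was -0.03. Il12rb1, the chain shared by the receptors for interleukin-12 and interleukin-23, fell under Suz12 shRNA (-0.24, adjusted p = 0.00838) and changed by -0.10 under Eed shRNA (adjusted p = 0.262). The 23 receptor chains called in neither comparison changed by -0.16 to 0.20. They included Il10rb, a chain shared by the receptors of the interleukin-10 group (-0.16 and -0.14, adjusted p = 0.0662 and 0.101), Il17ra, the common interleukin-17 receptor (0.01 and -0.04), and Il4ra (0.0067 and -0.10). For Eed shRNA, Il10rb was called lower under 5 of 17 alternative settings, namely without control replicate 2 (-0.21), after centring on array medians (-0.22), with dim genes left out, with a trended and robust limma fit and with the replicate number as a block (-0.16 in each of these 3). The first 2 also gave the call for Suz12 shRNA (-0.19 and -0.20).

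Ligands and the chains that receive them did not always move together. In the IL-1 family of 19 genes, 5 rose under Eed shRNA and 6 under Suz12 shRNA, and none fell. Over all genes tested, 8.78% and 8.25% were called higher and 13.1% and 12.9% lower. The sixth gene was Il33, which lay below the guide and whose call was lost under 11 of 16 alternative settings. Both the interleukin-36 gamma ligand and its receptor chain Il1rl2 rose, while their shared accessory chain Il1rap changed by 0.04 and 0.03. The accessory chain Il18rap rose, while Il18 itself (0.09 and 0.11) and the binding chain Il18r1 (0.06 and 0.11) lay below the guide in every group and were not called. Without control replicate 1, Il18r1 was called under Suz12 shRNA (0.16). In the IL-12 family of 8 genes Il12a fell and Il12rb2 rose in each comparison, and Il12b, whose product joins that of Il12a, lay below the guide (5.98 over the 9 arrays). Il12rb1 also fell under Suz12 shRNA (-0.24, limma adjusted p = 0.00838). Of the 6 genes of the IL-6 family none rose. Il6ra fell in each comparison and Il6st under Eed shRNA, and each of their calls under Eed shRNA was lost with 1 particular array left out. Of the 16 genes of the IL-2, IL-4 and IL-7 family, 3 rose and none fell in each comparison, namely Il7r, Il13ra1 and Il15. The matching ligand or receptor genes Il7 (0.0052 and -0.0002), Il13 (0.07 and 0.09) and Il15ra (-0.06 and -0.13) were not called. Of these, Il7 lay below the guide in every group (4.66 over the 9 arrays), and Il13 lay only a little above it (6.61). Of the 10 genes of the IL-10 family and the 11 of the IL-17 family, limma called none in either comparison in the reported fit. Besides Il10rb, the IL-10 family receptor gene Il20ra (0.20 under Eed shRNA) was called higher with only the 2 groups compared (adjusted p = 0.0467) and without Suz12 shRNA replicate 1 (adjusted p = 0.0281). The smallest adjusted p-values were 0.0661 and 0.101 in the IL-10 family, where 2 and 4 genes had an unadjusted p under 0.05, and 0.392 and 0.499 in the IL-17 family, where 0 and 0 had.

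Where members lie side by side in the genome, called genes had uncalled members near them, and several groups of neighbours held no called gene. By gene order, 12 runs held at least 2 members with at most 3 other genes between neighbours. In the longest, on chromosome 2, the 6 members stand in the order Il1f8, Il1f9, Il1f6, Il1f5, Il1f10 and Il1rn. Il1f9 and Il1rn rose, while Il1f8 (-0.0020 and 0.04) and Il1f6 (-0.11 and -0.04), which encode interleukin-36 beta and alpha, Il1f5 (-0.09 and -0.14), which encodes the interleukin-36 receptor antagonist, and Il1f10 (0.01 and 0.02) were not called and lay below the guide in every group. Il1f5 was called lower without control replicate 3 (-0.18 and -0.23). In the receptor run on chromosome 1, Il1rl2 and Il18rap rose and Il1r2 and Il18r1 were not called. Il1r1 and Il1rl1, which were not analysed, also lie in that run. The runs of Il24, Il20, Il19 and Il10 on chromosome 1 and of Il4, Il13 and Il5 on chromosome 11 held no called gene. Nor did the pairs Il17a and Il17f, Il22ra2 and Il20ra, Il2ra and Il15ra, Il2 and Il21, Il17re and Il17rc, and Il4ra and Il21r.

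**Figure D4:**
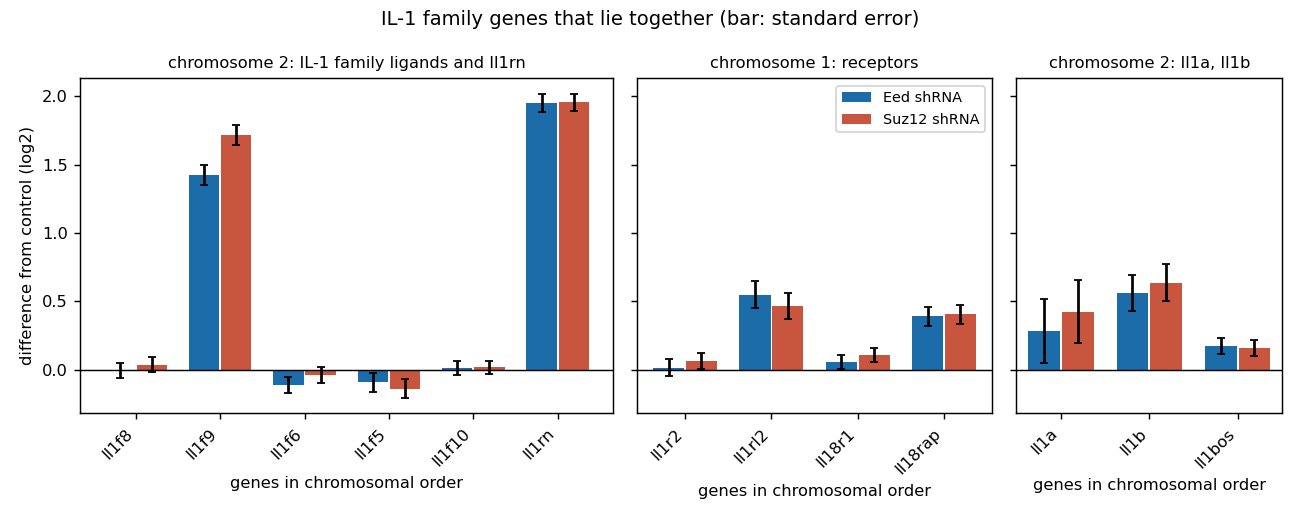
Difference from the control (log2, bars are standard errors) of IL-1 family genes in 3 runs, in chromosomal order, for Eed shRNA and Suz12 shRNA. Il1f9 and Il1rn stand high at separate places of the left run, with the 3 members between them near or below 0. Genes of the runs that are not members are not drawn.

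No interleukin gene was called between the knockdowns. Between Suz12 shRNA and Eed shRNA limma called 0 of the 74 members (35 of all genes, 0.176%), and 7 members had an unadjusted p under 0.05. The largest of these differences was that of Il1f9, higher under Suz12 shRNA by 0.29 (SE 0.07, adjusted p = 0.309), with no overlap between the groups. Over all members, 3 were higher and 5 lower under Suz12 shRNA than under Eed shRNA without overlap of the arrays (4.6% and 5.51% of all genes). Il12rb2 differed by 0.17 (adjusted p = 0.659), Il6st by 0.20 (adjusted p = 0.805) and Il12rb1 by -0.14 (adjusted p = 0.726). Il7r, higher under Eed shRNA by 0.18 (Suz12 shRNA minus Eed shRNA -0.18, adjusted p = 0.819), had overlapping arrays.

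Among genes that pass interleukin signals on without carrying an interleukin name, the shared beta chains rose. Of 13 measured shared chains and related ligands, 3 were higher and none lower in each comparison. For this and the next 2 lists, 8.78% and 8.25% of all genes were higher and 13.1% and 12.9% lower. Csf2rb, the beta chain of the receptors for interleukin-3, interleukin-5 and GM-CSF, rose by 0.70 and 0.70 (log2, adjusted p = 1.5e-05 and 1.52e-05) and its close paralogue Csf2rb2 by 1.0 and 1.05 (adjusted p = 5.22e-07 and 3.77e-07). Probes of such close copies may share signal, which was not tested. The gp130 ligand gene Clcf1 rose by 0.26 and 0.32, and Ebi3, the partner of the Il27 and Il12a products, changed by 0.11 and 0.15 and was not called (adjusted p = 0.217 and 0.067). Of 16 IL-1 family signalling genes, 1 was higher and 1 lower under Eed shRNA, and 2 were higher and 1 lower under Suz12 shRNA. Irak3, a brake on the MyD88 pathway, rose by 0.50 in each comparison. Casp1, the protease that matures interleukin-1 beta, fell under Eed shRNA (-0.32, adjusted p = 0.00749) and was not called under Suz12 shRNA (-0.16, adjusted p = 0.15). Irak2, a kinase of the same pathway, fell under Suz12 shRNA (-0.36) and was not called under Eed shRNA (-0.07), and Tollip rose under Suz12 shRNA (0.19). Of 13 JAK-STAT genes, 3 were higher in each comparison, and 2 (Eed shRNA) and 1 (Suz12 shRNA) were lower. The kinase gene Jak1 rose by 0.56 and 0.54, the STAT5 target and inhibitor Cish by 0.60 and 0.45 and Stat3 by 0.20 and 0.21, while Stat5a fell by 0.20 and 0.24 on the log2 scale.

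Neutrophil and eosinophil markers were mostly higher in the knockdowns, while monocyte and macrophage markers went both ways. For the counts below, 8.78% and 8.25% of all genes were called higher and 13.1% and 12.9% lower (Eed then Suz12 shRNA). Under Eed shRNA 7 of 11 neutrophil markers were higher and 2 lower, and under Suz12 shRNA 8 and 2. Their mean level per array was 9.15 to 9.17 in the controls, 10.0 to 10.1 under Eed shRNA and 10.3 to 10.4 under Suz12 shRNA. Of 7 eosinophil markers, 5 were higher in each comparison, with a mean level of 6.75 to 6.82 in the controls, 8.36 to 8.48 under Eed shRNA and 8.52 to 8.65 under Suz12 shRNA, while the eosinophil receptor gene Ccr3 was below the guide in every group. Of 10 monocyte and macrophage markers 3 were higher and 2 lower in each comparison, and of 11 mast cell and basophil markers 3 and 1. Of 11 T and NK cell markers none was called under Eed shRNA and 1 was lower under Suz12 shRNA. Those above the guide included Cd3e, Cd247 and Foxp3 in all 3 groups, while Cd3g and Cd4 lay below it. Of 9 B cell markers none was called in the Eed comparison, and Blnk, an adaptor of the B cell receptor, was higher in the Suz12 comparison (0.32, adjusted p = 0.0107). Of 9 stromal and endothelial markers 1 was higher under Eed shRNA, and 1 was higher and 1 lower under Suz12 shRNA. In bulk RNA a change in the share of cells of a type and a change in RNA per cell cannot be told apart, and the part of these markers in the changes of the interleukin genes was not tested.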

How the data were processed

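Total RNA of 9 samples was hybridized to Affymetrix arrays after biotin labelling, per the labels' protocols. The deposited values are log2 levels that the authors made with RMA, per the submitters' processing notes, with its version and probe annotation not given in the sources used here. Of 34760 probe sets, 21640 carried 1 gene symbol in the platform annotation, 1321 carried several and were left out, and 11799 were unnamed here. Each gene was represented by its brightest probe set (mean over the 9 arrays), which gave 19937 genes. All 74 interleukin genes matched RefSeq's GRCm38.p6 gene table by gene number, which was used for gene order, and no filter on low values was set.

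All genes were fitted with a mean for each group in limma 3.58.1 under R 4.3.3 (lmFit, eBayes; 6 residual and 4.11 prior degrees of freedom), and the fit was tested on simulated data. Calls required an adjusted p under 0.05 (Benjamini-Hochberg over all genes, two-sided). Members, roles, families and lists were written from general knowledge with earlier results of these data known. Array values are given for members called and changed at least 1.5-fold, the others by change, and uncalled members by count and range with up to 3 named per role. Alternatives covered scaling, probe sets, dim genes, variance model, groups in the fit, replicate block and leaving out each array.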

Additional observations from a re-analysis of the deposited data

How the results depend on the processing

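Of the 25 calls of interleukin genes against the control, 21 were kept under every alternative that could be computed, and 4 were lost under at least 1 (Il33 under Suz12 shRNA, and Il6ra, Il6st and Il1b under Eed shRNA). No gene reversed. Centring each array on its median moved the median of all genes by -0.06 under Eed shRNA and by -0.05 under Suz12 shRNA and raised the lower calls to 6 under Eed shRNA and 10 under Suz12 shRNA, with 11 receptor genes called under Suz12 shRNA in place of 7. Over all genes centring raised the lower calls from 2602 to 3983 under Eed shRNA and from 2578 to 4176 under Suz12 shRNA. The added members were Il10rb, Il12rb1 and Il19 under Eed shRNA, and Il10rb, Il4ra, Il15ra, Il22ra1, Il22ra2, Il20 and Il1f5 under Suz12 shRNA. Quantile normalization gave 5 lower calls under Suz12 shRNA, adding Il15ra and Il22ra1. Leaving out each array in turn gave 8 to 10 higher and 2 to 4 lower members under Eed shRNA and 9 to 10 higher and 3 to 4 lower under Suz12 shRNA. The counts between the knockdowns stayed at 0 under every alternative by limma, where 7 members had an unadjusted p under 0.05 in the reported fit. The replicate numbers share no stated source, and same-numbered arrays deviated with correlations from -0.167 to 0.201, so they were not taken as pairs. A fit with the replicate number as a block called 9 members higher and 4 lower (adding Il10rb) for Eed shRNA, and 9 and 3 for Suz12 shRNA. RMA values carry no detection call, so changes of genes below the background guide are limited by background signal.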
